A study of Homo sapiens with 4 samples.

Results

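The 37 genes of the human mitochondrial genome, taken as every gene whose symbol starts with MT- among the 58870 genes of each deposited table, were followed in BJ cells, an established line of human foreskin fibroblasts. They comprise 13 mRNAs, 2 ribosomal RNAs and 22 transfer RNAs. There were 4 libraries of total RNA: 2 from cells given the solvent DMSO, titled young control (here control), and 2 from cells given 250 nM of a compound abbreviated as Dox, titled aged (here Dox). The series design describes 24 hours of exposure followed by 10 days for senescence to develop, while the samples' own protocol can be read in the reverse order. The labels leave unsaid whether a group's replicates came from separate cultures. The p-values therefore measure the spread between these libraries only, which may be technical.

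The mitochondrial genome is a small circle, present in many copies per cell, that encodes subunits of the respiratory chain and of ATP synthase together with the RNAs needed to translate them. Both strands are copied by the polymerase POLRMT, with the factors TFAM and TFB2M, into long precursors that span many genes. The precursors are cut mostly at the tRNAs that lie between the other genes. Most of the mRNAs are then given short poly(A) tails and protected by the LRPPRC and SLIRP proteins. Most genes are read from the heavy-strand promoter. The light-strand promoter gives 1 mRNA, that of MT-ND6, and 8 of the tRNAs.

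Expected counts, the reads that RSEM assigned to each gene, summed to between 42744729 and 47798920 per library. The 2 Dox libraries differed from each other far beyond counting noise (chi-square per degree of freedom 60.5, against 2.40 for the control pair). Their ratio followed the GC content of the transcripts over 16717 genes (Spearman rho = -0.59), whereas rho was -0.0296 for the ratio of the controls. For Dox over control rho was -0.0327, but this averages over the 2 Dox libraries that differ in the trend. The 8 fibroblast markers, all detected, summed to 28294.6 and 27849.8 CPM (counts scaled to library size, here with TMM factors) in the controls and to 20290.2 and 24940.01 CPM in Dox, both below the controls. With edgeR, COL3A1, PDGFRA and PDGFRB fell, THY1, DCN and LUM rose, and COL1A1 and COL1A2 did not pass. The keratinocyte (2 of 4 markers at 0), melanocyte and endothelial lists each stayed at or under 12.3 CPM. The 4 immune markers (1 at 0) summed to 0.479 and 0.597 CPM in the controls and to 2.43 and 2.42 CPM in Dox, and whether these marker differences bear on any result was not tested. With 1 Dox library left out, the spread in the fit comes from the 2 controls alone, which lay close together; with 1 control left out it comes from the 2 Dox libraries.

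Mitochondrially encoded RNA was more abundant in both Dox libraries than in both controls. The 13 mRNAs took 0.189% of the counts in control replicate 1 (Wilson 95% interval 0.188 to 0.191%) and 0.184% in control replicate 2 (0.183 to 0.185%). Dox replicate 1 gave 0.634% (0.632 to 0.636%) and Dox replicate 2 gave 0.379% (0.377 to 0.381%), all intervals covering counting error only. The 2 rRNAs took 0.103% and 0.112% of control counts and 0.447% and 0.205% of Dox counts. The groups did not overlap in either class, and the Dox mean was 2.72 times the control mean for the mRNAs and 3.03 times for the rRNAs. In Dox replicate 1 both classes were higher than in Dox replicate 2, by 1.67 times for the mRNAs and 2.18 times for the rRNAs, a gap larger than that between the controls. On the log2 scale the mean difference in mRNA share was 1.39, with 1.02 when Dox replicate 1 was left out and 1.76 when Dox replicate 2 was. For the rRNA share it was 1.49, and 0.93 and 2.06 with the same libraries left out. The small RNAs RN7SL1 and RN7SL2 together took 17.6% and 17.4% of control counts and 14.7% and 12.6% of Dox counts, and with them removed from the totals the mRNA difference was 1.33. In bulk RNA, more mitochondrial RNA per cell and less RNA of other kinds per cell cannot be told apart.

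**Figure D1:**
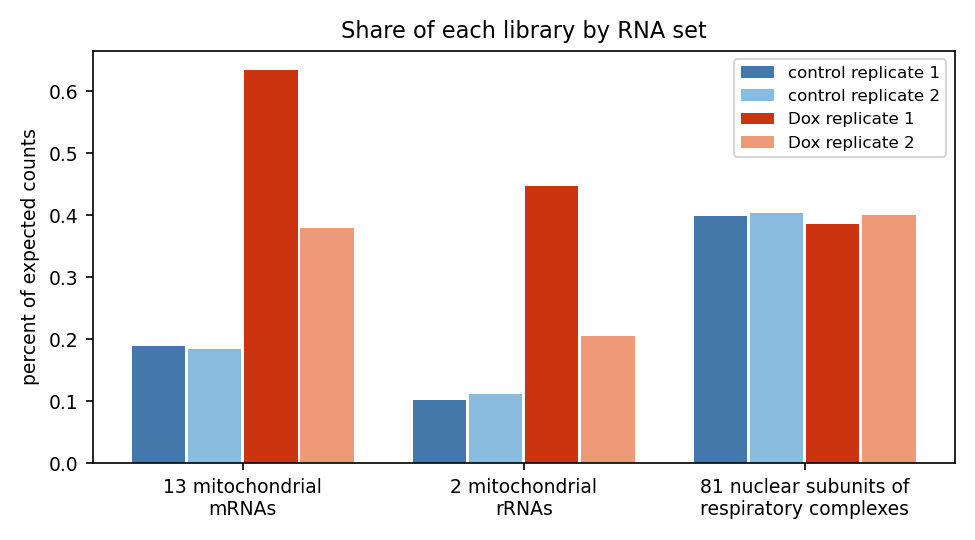
Bars give the percent of each library's expected counts held by the 13 mitochondrial mRNAs, the 2 mitochondrial rRNAs and 81 nuclear subunits of the respiratory complexes. The mitochondrial sets are higher in both Dox libraries, with Dox replicate 1 (0.634% for the mRNAs) above Dox replicate 2 (0.379%), while the nuclear set lies between 0.386% and 0.404% in all 4 libraries.

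Of the 37 genes, 15 passed the filter on low counts, namely all mRNAs and rRNAs, and none of the 22 tRNAs did. With edgeR (quasi-likelihood F test, p-values adjusted by Benjamini-Hochberg over all 16749 tested genes, threshold 0.05), 12 of the 15 rose in Dox, where 16.5% of all tested genes did. The other 3, MT-ND3, MT-ATP8 and MT-ND6, had positive log2 fold changes that did not pass. Both Dox libraries lay above both controls for 14 of the 15, against 34.6% of all tested genes. Only the tested members are counted here, and their median log2 fold change was 1.75, beside -0.0023 for all tested genes. The number of rises was 13 with either control or Dox replicate 1 left out, and 15 with Dox replicate 2 left out. Dropping Dox replicate 1 brought the median to 0.99 and dropping Dox replicate 2 brought it to 2.20, so the size of the change depended on which Dox library was used.

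**Figure D2:**
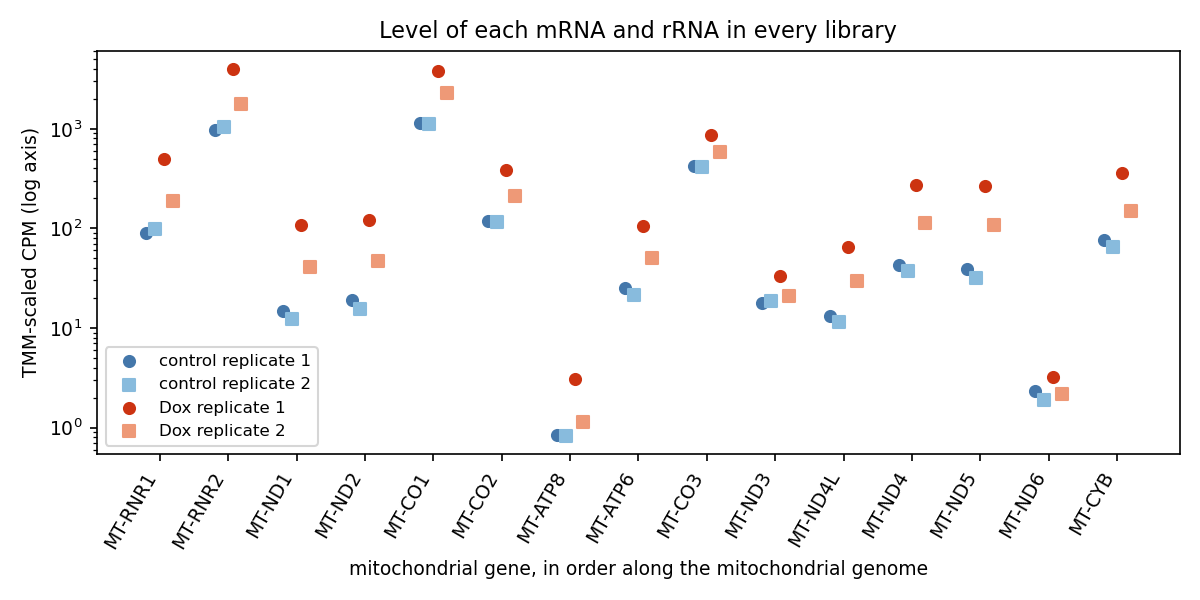
TMM-scaled CPM (log axis) of the 15 tested mitochondrial genes in every library, in their order along the mitochondrial genome. For every gene but MT-ND6 both Dox points lie above both control points, and Dox replicate 1 lies above Dox replicate 2 for all 15.

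The rRNAs come first along the heavy strand. MT-RNR1, the 12S rRNA of the small mitochondrial ribosomal subunit (chrM:648-1601 in GRCh38), was at 89.2 and 99.6 CPM in the controls and 495 and 189 CPM in Dox. MT-RNR2, the 16S rRNA of the large subunit (chrM:1671-3229), was at 963 and 1044 CPM in the controls and 3980.2 and 1772 CPM in Dox. Both rose, by 1.86 (SE 0.41, edgeR adjusted p = 0.0175) and 1.52 (SE 0.34, edgeR adjusted p = 0.0189) on the log2 scale. Dropping Dox replicate 1 gave 0.99 for MT-RNR1 and 0.81 for MT-RNR2, and dropping Dox replicate 2 gave 2.39 and 1.98. Per length, in TPM, MT-RNR2 stood at 6.02 and 5.85 times MT-RNR1 in the controls and at 4.46 and 5.21 times in Dox, so the groups did not overlap in this ratio. The summed rRNAs stood at 0.358 and 0.404 of the summed mRNAs in the controls and at 0.493 and 0.379 in Dox, ratios that overlapped. Whether rRNA was removed before sequencing is not given in the sources used here. The rRNA level relative to mRNA, and the rRNA difference between the groups, therefore describe these libraries only.

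Complex I, which takes electrons from NADH, has 7 subunits encoded in mitochondrial DNA, and 6 of their mRNAs come from the heavy strand. MT-ND1 (chrM:3307-4262), a membrane subunit next to the quinone site, was at 14.8 and 12.3 CPM in the controls and 107 and 40.8 CPM in Dox. MT-ND2 (chrM:4470-5511), a proton-pumping membrane subunit, was at 19.2 and 15.6 CPM in the controls and 121 and 47.1 CPM in Dox. These are the first mRNAs after the rRNA genes, and both Dox libraries lay above both controls, Dox replicate 1 by far the more. MT-ND4 (chrM:10760-12137), also a proton-pumping subunit, was at 42.9 and 37.7 CPM in the controls and 274 and 112 CPM in Dox. MT-ND5 (chrM:12337-14148), the largest of the pumping subunits, was at 39.4 and 32.0 CPM in the controls and 264 and 107 CPM in Dox. MT-ND4L (chrM:10470-10766), a small subunit whose gene runs into MT-ND4, was at 13.2 and 11.5 CPM in the controls and 65.8 and 29.9 CPM in Dox. All 5 rose, with edgeR log2 fold changes of 2.45 (SE 0.43) for MT-ND1, 2.27 (SE 0.42) for MT-ND2, 2.26 (SE 0.39) for MT-ND4, 2.38 (SE 0.40) for MT-ND5 and 1.95 (SE 0.35) for MT-ND4L, and their edgeR adjusted p-values ran from 0.00685 to 0.00954. The 5 values lay between 1.27 (MT-ND4L) and 1.58 (MT-ND1 and MT-ND5) without Dox replicate 1, and between 2.41 (MT-ND4L) and 2.98 (MT-ND1) without Dox replicate 2.

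MT-ND3 (chrM:10059-10404), the remaining heavy-strand subunit of complex I, had the smallest log2 fold change of the 6. The level was 17.6 and 18.7 CPM in the controls and 33.4 and 21.1 CPM in Dox, so that Dox replicate 2 lay only a little above the controls. Its log2 fold change was 0.58 (SE 0.21, edgeR adjusted p = 0.0778), and it passed under 7 of the 16 alternative settings, among them DESeq2 (adjusted p = 0.0103). Leaving out Dox replicate 1 gave 0.20, and leaving out Dox replicate 2 gave 0.87. Its neighbours along the heavy strand are MT-CO3 before it and MT-ND4L after it, with log2 fold changes of 0.79 and 1.95.

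The complex IV mRNAs encode the catalytic core of cytochrome c oxidase, the enzyme that reduces oxygen. MT-CO1 (chrM:5904-7445), the subunit that holds the oxygen-binding site, was at 1145 and 1126 CPM in the controls and 3771 and 2269 CPM in Dox. MT-CO2 (chrM:7586-8269), which receives electrons from cytochrome c, was at 118 and 115 CPM in the controls and 384 and 210.5 CPM in Dox. MT-CO3 (chrM:9207-9990), a structural core subunit, was at 422 and 417 CPM in the controls and 863 and 588 CPM in Dox. The control replicates lay close together for all 3, and both Dox libraries were above them. All 3 rose, by 1.41 (SE 0.22) for MT-CO1, 1.35 (SE 0.26) for MT-CO2 and 0.79 (SE 0.17, edgeR adjusted p = 0.0167) for MT-CO3 on the log2 scale. Without Dox replicate 1 these were 0.99, 0.84 and 0.48, and without Dox replicate 2 they were 1.73, 1.71 and 1.04. MT-CO3 did not pass with limma on log2(TPM + 1) (adjusted p = 0.422) or on log2(TPM + 0.1) (adjusted p = 0.388).

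MT-CYB (chrM:14747-15887), cytochrome b and the only complex III subunit encoded in mitochondria, was at 75.9 and 64.8 CPM in the controls and 358 and 149 CPM in Dox, and rose by 1.85 (SE 0.38, edgeR adjusted p = 0.0137). MT-ATP6 (chrM:8527-9207), a subunit of the proton channel of ATP synthase, was at 24.9 and 21.3 CPM in the controls and 106 and 50.1 CPM in Dox, and rose by 1.75 (SE 0.33, edgeR adjusted p = 0.0103). Leaving out Dox replicate 1 gave 1.07 for MT-CYB and 1.11 for MT-ATP6, and leaving out Dox replicate 2 gave 2.35 and 2.20. MT-ATP8 (chrM:8366-8572), a short membrane subunit of the same enzyme, was at 0.838 and 0.831 CPM in the controls and 3.06 and 1.15 CPM in Dox. The MT-ATP8 value of 1.32 (SE 0.47, edgeR adjusted p = 0.0773) rested on 35 and 39 control counts and on 131 and 52 Dox counts. It passed under 10 of 16 alternatives and became 0.44 with Dox replicate 1 left out and 1.87 with Dox replicate 2 left out.

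The single light-strand mRNA was scarce in every library. MT-ND6 (chrM:14149-14673, minus strand), a membrane subunit of complex I, was at 2.32 and 1.88 CPM in the controls and 3.20 and 2.16 CPM in Dox, with 97 and 88 control counts and 137 and 98 Dox counts. Here the groups overlapped, since Dox replicate 2 lay between the controls. The log2 fold change was 0.35 (SE 0.24, edgeR adjusted p = 0.313). It passed in 1 of the 16 alternatives, without Dox replicate 2 (edgeR adjusted p = 0.0033), and its adjusted p ran from 0.0033 to 0.996 over all of them. Per length, MT-ND6 stood at 3.66% and 3.05% of the mean heavy-strand mRNA in the controls and at 1.62% and 1.92% in Dox, so the groups did not overlap in this ratio. Against MT-ND5, whose gene ends next to it on the other strand, MT-ND6 stood at 28.6% and 28.3% in the controls and 5.98% and 9.80% in Dox. With 2 libraries against 2 an exact two-sided permutation test cannot give a p under 0.33, so the difference between MT-ND6 and the other mRNAs was not tested. The strand setting of the library kit and of the counting is not given in the sources used here. Without strand, reads from MT-ND6 and from heavy-strand RNA that runs through the same stretch cannot be told apart.

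**Figure D3:**
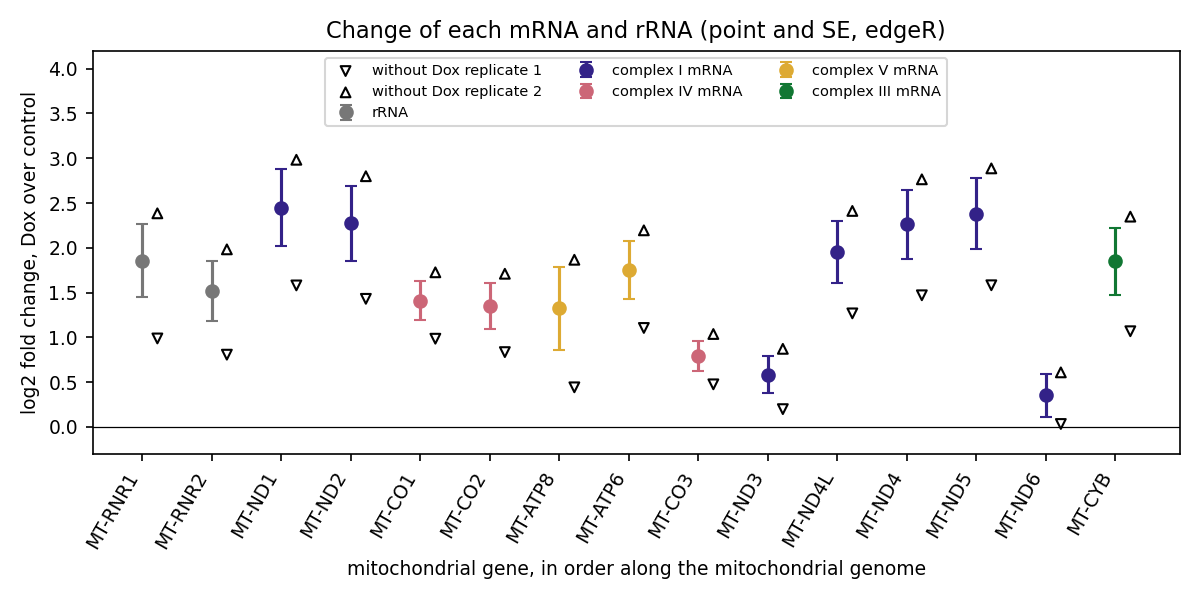
Points give the edgeR log2 fold change of Dox over control with its SE for the 15 tested mitochondrial genes in genome order, coloured by the respiratory complex they encode, and open triangles give the value with 1 Dox library left out. MT-ND1 (2.45) and MT-ND5 (2.38) lie highest and MT-ND6 (0.35), MT-ND3 (0.58) and MT-CO3 (0.79) lowest, and the values without Dox replicate 1 lie below those without Dox replicate 2 throughout.

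The genes are packed so closely that some share bases, which bears on how reads were split between them. MT-ATP8 and MT-ATP6 overlap by 46 bases, MT-ND4L and MT-ND4 by 7 bases, and MT-ATP6 and MT-CO3 by 1 base, and the first and second of these pairs are each known to be translated from 1 shared RNA. The sequences below (GENCODE 29, GRCh38, plus strand, 5′ to 3′) show the end of MT-ATP8 (chrM:8515-8572), the end of MT-ND4L (chrM:10737-10766) and the start of MT-ND4 (chrM:10760-10789), with the shared bases in capitals.
MT-ATP8 end: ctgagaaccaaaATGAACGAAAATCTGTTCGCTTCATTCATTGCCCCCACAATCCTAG
MT-ND4L end: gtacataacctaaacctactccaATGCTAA
MT-ND4 start: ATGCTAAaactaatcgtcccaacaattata
The capitals of MT-ATP8 are also the first bases of MT-ATP6. MT-ND4L stood at 3.25 and 3.17 times MT-ND4 per length in the controls and at 2.62 and 2.84 times in Dox. MT-ATP8 stood at 0.412 and 0.469 of MT-ATP6 in the controls and at 0.370 and 0.285 in Dox. MT-CO3, which is cut from the RNA that carries MT-ATP6, stood at 13.97 and 16.1 times MT-ATP6 in the controls and at 6.72 and 9.70 times in Dox. None of these 3 ratios overlapped between the groups, and none was tested. The effective length of MT-ATP8 in RSEM, the number of positions at which a fragment can start, was only 37.7 to 40.9 bases, so its level per length is less certain than that of the others. To a lesser degree this also holds for MT-ND4L (108 to 114 of 297 bases) and MT-ND3 (153 to 160 of 346 bases).

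The mRNAs also differ in how they end. In the annotation 6 of the 12 heavy-strand mRNAs stop short of a full stop codon, which the poly(A) tail is known to complete. The last 30 bases of mRNAs with large and small changes are shown next (GENCODE 29, GRCh38, 5′ to 3′), with the stop codon, or the part of it that is encoded, in capitals; MT-ND6 is on the minus strand and the others are on the plus strand.
MT-ND1 (chrM:4233-4262): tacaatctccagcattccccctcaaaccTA
MT-ND4 (chrM:12108-12137): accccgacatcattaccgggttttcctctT
MT-CO3 (chrM:9961-9990): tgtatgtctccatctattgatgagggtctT
MT-ND3 (chrM:10375-10404): gactacaaaaaggattagactgaaccgaaT
MT-ND5 (chrM:14119-14148): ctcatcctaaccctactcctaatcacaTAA
MT-CO1 (chrM:7416-7445): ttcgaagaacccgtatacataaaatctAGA
MT-ND6 (chrM:14149-14178): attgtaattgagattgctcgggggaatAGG
The incomplete set holds both the highest and the lowest heavy-strand value, MT-ND1 and MT-ND3. The 6 mRNAs annotated with a complete stop codon had log2 fold changes of 1.32 to 2.38 (median 1.58). The 6 without had 0.58 to 2.45 (median 2.06), so the ranges overlapped. MT-ATP6 (1.75) is complete only by the 1 base it shares with MT-CO3, so its place in this split, and the medians, depend on the annotation. Across the 12 heavy-strand mRNAs, the order of the changes was alike in 2 pairs of libraries that share none (Dox replicate 1 over control replicate 2, and Dox replicate 2 over control replicate 1, Spearman rho = 0.92). Against the gene's start position rho was 0.03, against GC content 0.26 and against length 0.54. Against the level per length in control replicate 1, with the change taken from control replicate 2, it was -0.58. These are descriptions over genes that share libraries and precursors, with no test.

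The makeup of the mRNA pool also differed between the groups. MT-CO1 and MT-CO3 made up most of the summed TPM of the 13 mRNAs: MT-CO1 held 37.0% and 37.7% in the controls and 38.6% and 41.2% in Dox, and MT-CO3 held 31.1% and 31.7% in the controls and 20.3% and 24.4% in Dox. The share of MT-ND1 was 0.848% and 0.727% in the controls and 1.95% and 1.31% in Dox. The groups did not overlap for 8 mRNAs with a larger share in Dox and for 3 with a smaller share (MT-CO3, MT-ND3 and MT-ND6), and they overlapped for MT-CO2 and MT-ATP8. Shares add to a fixed total, so they do not move independently. By complex, the complex I mRNAs held 14.8% and 14.002% of the pool in the controls and 20.9% and 16.7% in Dox, while the complex IV mRNAs held 78.6% and 80.03% in the controls and 69.8% and 76.2% in Dox. In both cases Dox replicate 2 lay between the controls and Dox replicate 1. Most of the complex I share came from 2 short mRNAs whose level per length is less certain. MT-ND4L held 5.14% and 4.56% of the pool in the controls and 8.37% and 6.62% in Dox. MT-ND3 held 4.87% and 5.30% in the controls and 3.01% and 3.31% in Dox. The heavy-strand complex I mRNAs stood at 18.4% and 17.2% of the complex IV mRNAs in the controls and at 29.7% and 21.7% in Dox. Shares in TPM are used only within a library, because RN7SL1 and RN7SL2 held 43.9% and 43.8% of all TPM in the controls and 33.0% and 42.3% in Dox, which shifts every other gene's TPM between libraries.

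**Figure D4:**
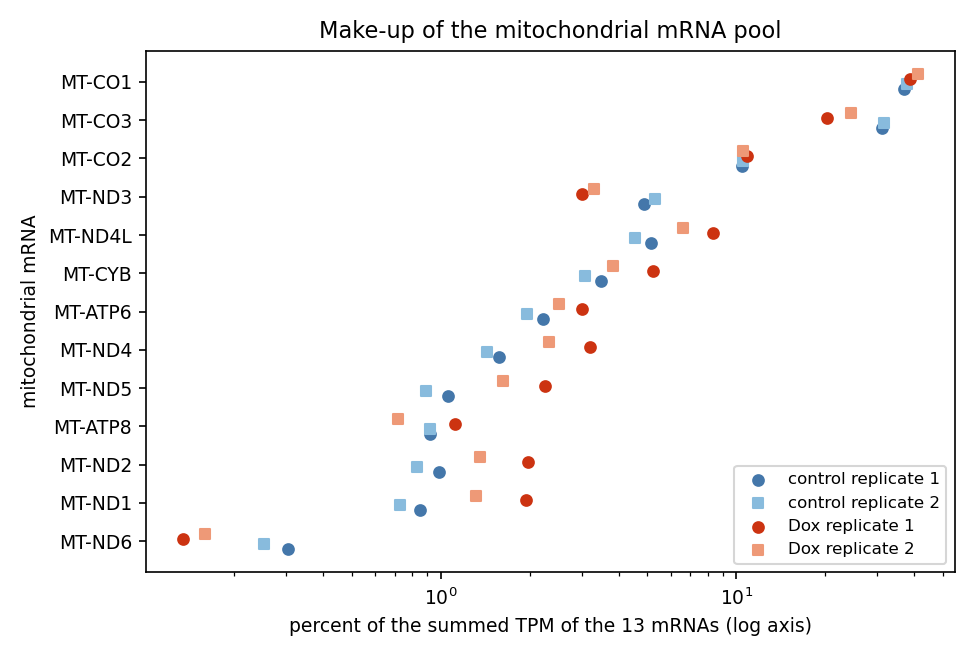
Percent of the summed TPM of the 13 mitochondrial mRNAs (log axis) held by each mRNA in every library, ordered by the control mean. MT-CO3, MT-ND3 and MT-ND6 lie lower in both Dox libraries (MT-CO3 at 20.3% and 24.4%, against 31.1% and 31.7%), MT-CO2 and MT-ATP8 overlap, and the other 8 lie higher.

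In TMM-scaled CPM, Dox replicate 1 lay above Dox replicate 2 for all 15 tested genes. The gap ran from 1.47 times (MT-CO3) to 2.67 times (MT-ATP8) with a median of 2.25 times. The control replicates stood at 0.895 to 1.24 times each other. The gap depended on the unit. In TPM, which RN7SL1 and RN7SL2 also shift, the 13 mRNAs summed to 1793 in Dox replicate 1 and 1618 in Dox replicate 2. There MT-CO3 (364 and 395) and MT-ND6 (2.41 and 2.58) lay lower in Dox replicate 1, and the other tested genes lay higher. The heavy-strand mRNAs have GC contents of 39.6% to 47.7%. Among the 5776 tested nuclear genes in that range, the ratio of the Dox libraries had a median of 1.05 (5th to 95th percentile 0.796 to 1.52), and 5.78% of them reached 1.47. With offsets for each library's GC trend, 14 of the 15 mitochondrial genes rose and their median log2 fold change was 1.68.

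The 22 mitochondrial tRNAs, which carry amino acids to the mitochondrial ribosome and mark the cutting sites of the precursors, were almost without reads. They summed to 23 and 14 counts in the controls and 19 and 15 in Dox, and 10 of the 22 had none in any library. A count of 0 allows up to 3 counts, or 0.0628 to 0.0702 CPM before scaling. By strand, the 14 heavy-strand tRNAs summed to 13, 10, 14 and 8 counts and the 8 light-strand tRNAs to 10, 4, 5 and 7 (control replicates 1 and 2, then Dox replicates 1 and 2), and neither set separated the groups. The tRNA genes are 59 to 75 bases long, while the gap between full and effective length of MT-ND5 put the mean fragment at about 190 to 198 bases. All 22 have an effective length of 0 in RSEM and are listed at 0 TPM. At this depth and fragment size a change of the tRNAs was not detectable. The 2 that held the most reads are shown whole, as DNA letters from GENCODE 29 (GRCh38), because they flank the rRNAs and the light-strand mRNA.
MT-TV (chrM:1602-1670, plus strand): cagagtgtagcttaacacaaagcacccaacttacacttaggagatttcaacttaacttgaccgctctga
MT-TE (chrM:14674-14742, minus strand): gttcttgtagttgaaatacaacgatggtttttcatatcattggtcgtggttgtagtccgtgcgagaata
MT-TV, the valine tRNA between MT-RNR1 and MT-RNR2, had 7 and 5 control counts and 4 and 4 Dox counts. MT-TE, the glutamate tRNA upstream of MT-ND6 on the light strand, had 5 and 3 control counts and 4 and 3 Dox counts.

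Few nuclear genes of the same pathways rose. Over 13 lists holding 298 tested nuclear genes, 9 rose and 45 fell by edgeR, where 16.5% of all tested genes rose and 13.8% fell, and their median log2 fold change was -0.14. Of the 80 tested nuclear subunits of complexes I to V, 2 rose, 6 fell and 72 did not pass, with a median of -0.09 and a range of -0.54 to 0.36. As an unscaled share of counts these subunits held 0.398% and 0.404% in the controls and 0.386% and 0.400% in Dox, groups that overlapped. Summed after TMM scaling they stood at 4077 and 4114 CPM in the controls and 3873 and 3827 CPM in Dox, which did not overlap. Both Dox libraries lay below both controls for 43 of the 80 and above both for 9. Over all 16749 tested genes these numbers were 5777 and 5797. The summed TPM of the 13 mitochondrial mRNAs stood at 0.314 and 0.300 of that of the nuclear subunits in the controls and at 0.996 and 0.585 in Dox. Most of the gap between the Dox libraries lay in the nuclear sum, at 1800 TPM in Dox replicate 1 and 2769 TPM in Dox replicate 2. The mitochondrial sum was 1793 and 1618 TPM. The counts of calls moved with the processing. Scaling by library totals gave 10 rises and 15 falls, DESeq2 gave 7 and 23, limma on log2(TPM + 1) gave 1 and 0, and GC-trend offsets gave 11 and 147. Over all tested genes these settings gave, in the same order, 3029 and 1669, 2294 and 1850, 596 and 198, and 3316 and 4631. The main fit gave 2764 and 2309. Calls over all tested genes were also fewer with either control left out and more with either Dox library left out. Dropping control replicate 1 left 0 rises and 6 falls, and dropping control replicate 2 left 0 and 5. Dropping Dox replicate 1 gave 27 and 139, and dropping Dox replicate 2 gave 36 and 158.

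For every list below, the main-fit shares to compare with are 16.5% rising and 13.8% falling over all tested genes. The calls within each nuclear list depended on the library set too, and the counts with a library left out are given with each list. Calls over all tested genes moved in the same direction, so the direction of these shifts is not particular to the lists. In proportion, calls over the lists together moved by more than those over all tested genes, a difference that was not tested. Among nuclear complex I subunits 4 of 37 fell, no larger a share than over all tested genes. Among them were NDUFA12 (-0.54, SE 0.09), NDUFB5 (-0.39, SE 0.08) and NDUFB4 (-0.34, SE 0.09), accessory subunits. NDUFA12 was at 24.9 and 25.2 CPM in the controls and 18.1 and 16.4 CPM in Dox. The complex I falls numbered 0 with either control left out, 14 without Dox replicate 1, 22 without Dox replicate 2 (beside 1 and 2 rises), and 19 with GC-trend offsets. For complex III none of 9 passed with edgeR, none had an unadjusted p under 0.05, and DESeq2 and limma called none either. Yet 3 fell when Dox replicate 1 was dropped, 3 rose and 4 fell when Dox replicate 2 was dropped, 4 fell with GC-trend offsets and 1 fell without the low-count filter. Its values lay between -0.24 (UQCRC1, a core subunit) and 0.13 (UQCR11, a small accessory subunit). In complex IV 1 of 12 fell, NDUFA4 (-0.34, SE 0.09), and COX5B (-0.14) and COX7A1 (-0.18) did not pass. There were 0 calls in complex IV with either control left out, 7 falls without Dox replicate 1, and 2 rises and 3 falls without Dox replicate 2. In complex V 1 of 18 rose, ATP5IF1 (0.25, SE 0.08, edgeR adjusted p = 0.0496), the inhibitor of ATP hydrolysis by the enzyme. No complex V gene rose with upper-quartile scaling, without the filter, with DESeq2, limma or the replicate block, or with either control left out. Rises and falls in complex V numbered 4 and 9 without Dox replicate 1 and 3 and 5 without Dox replicate 2. Complex II, which is wholly nuclear-encoded, had among 4 genes 1 rise, SDHC (0.36, SE 0.10), and 1 fall, SDHD (-0.37, SE 0.08), both named after their values were seen. Neither direction held a call in complex II with limma or with either control left out, and there were 1 rise and 2 falls without Dox replicate 1 and 1 rise and 3 falls without Dox replicate 2.

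Among 45 genes that make, process and degrade mitochondrial RNA, 5 fell, 1 rose and 39 did not pass (median -0.14). Over all tested genes 13.8% fell and 16.5% rose, so neither direction was more frequent in this list. The list held 0 calls with either control left out, 3 rises and 17 falls without Dox replicate 1, 7 rises and 21 falls without Dox replicate 2, and 1 rise and 17 falls with GC-trend offsets. REXO2, an exonuclease that removes short RNAs in mitochondria, fell from 136 and 137 CPM to 103 and 101 CPM (-0.42, SE 0.07, edgeR adjusted p = 0.00647). HSD17B10, a component of mitochondrial RNase P, fell by 0.50 (SE 0.12), and MRM2, an rRNA methyltransferase, fell by 0.43 (SE 0.10). The member that rose, named after its value was seen, was PDE12, which removes poly(A) from mitochondrial RNA (0.37, SE 0.08). Of the genes introduced as background, also chosen after their values were seen, POLRMT (-0.11, SE 0.18), TFAM (-0.19, SE 0.11), TFB2M (0.07, SE 0.09), LRPPRC (0.11, SE 0.07) and SLIRP (0.03, SE 0.10) did not pass.

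Falls numbered 21 among 79 mitochondrial ribosomal protein genes, with 1 rise and 57 without a call (median -0.20). The 2 rRNAs they bind rose, but whether rRNA was removed before sequencing is not known here. MRPL11 fell by 0.57 (SE 0.10), MRPL48 fell by 0.81 (SE 0.15) and MRPS35 fell by 0.42 (SE 0.08). The falls in this list numbered 4 when scaled by library totals, 6 with DESeq2 48 with GC-trend offsets, 3 or 1 with control replicate 1 or 2 left out, and 49 or 50 with Dox replicate 1 or 2 left out. Of 20 mitochondrial tRNA synthetase and amidotransferase genes 4 fell, with QRSL1 (-0.41, SE 0.09) and NARS2 (-0.40, SE 0.10) among them. This became 0 or 1 with control replicate 1 or 2 left out, 9 (beside 2 rises) or 15 with Dox replicate 1 or 2 left out, and 11 with GC-trend offsets. Of 12 translation factors 2 fell, TACO1, an activator of MT-CO1 translation (-0.56, SE 0.14), and TSFM, an elongation factor (-0.35, SE 0.10), while MTIF3 (-0.21, SE 0.08) did not pass. No translation factor was called with either control left out, and 5 fell with either Dox library left out, beside 1 rise without Dox replicate 1 and 2 without Dox replicate 2.

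Of 26 genes that copy and maintain mitochondrial DNA 3 fell and 1 rose, in neither direction a larger share than over all tested genes (13.8% and 16.5%). With either control left out 1 fell and 0 rose, and 4 rose with either Dox library left out, beside 10 falls without Dox replicate 1 and 13 without Dox replicate 2. TYMP, thymidine phosphorylase, fell by 0.97 (SE 0.22), PRIMPOL, a primase-polymerase, fell by 0.47 (SE 0.11), and SLC25A4, the ADP/ATP carrier, fell by 0.40 (SE 0.10). The riser, named after its value was seen, was RRM2B, the p53-inducible ribonucleotide reductase subunit that supplies nucleotides outside S phase (0.53, SE 0.08, edgeR adjusted p = 0.00466), at 98.7 CPM (control mean) and 143 CPM (Dox mean). Of 9 tested regulators of mitochondrial biogenesis 2 rose, the coactivators PPRC1 (0.41, SE 0.08) and PPARGC1B (2.09, SE 0.51). PPARGC1B rested on 3 and 2 control counts and 11 and 11 Dox counts, and PPARGC1A, the best-known coactivator of this family, did not pass (1.16, SE 0.44). Regulators called with either control left out numbered 0, against 3 rises and 4 falls without Dox replicate 1 and 3 rises and 3 falls without Dox replicate 2.

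Among 15 mitochondrial chaperones and proteases 3 fell, namely HSPA9, the matrix Hsp70 (-0.57, SE 0.07), LONP1, the matrix protease that also degrades TFAM (-0.85, SE 0.17), and PHB2, a prohibitin (-0.42, SE 0.11). LONP1 was at 92.7 and 97.1 CPM in the controls and 42.8 and 62.2 CPM in Dox. Falls in this list numbered 2 with either control left out, 7 without Dox replicate 1 (beside 1 rise) and 10 without Dox replicate 2. Of 13 mitophagy genes 2 rose, the receptors OPTN (0.50, SE 0.09) and SQSTM1 (0.55, SE 0.11), and 2 fell, CALCOCO2 (-0.27, SE 0.07) and PHB2, which is in both lists. The deubiquitinase gene USP30 (-0.22, SE 0.11) did not pass. Mitophagy calls numbered 0 with either control left out, 3 rises and 4 falls without Dox replicate 1, and 4 rises and 5 falls without Dox replicate 2.

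**Figure D5:**
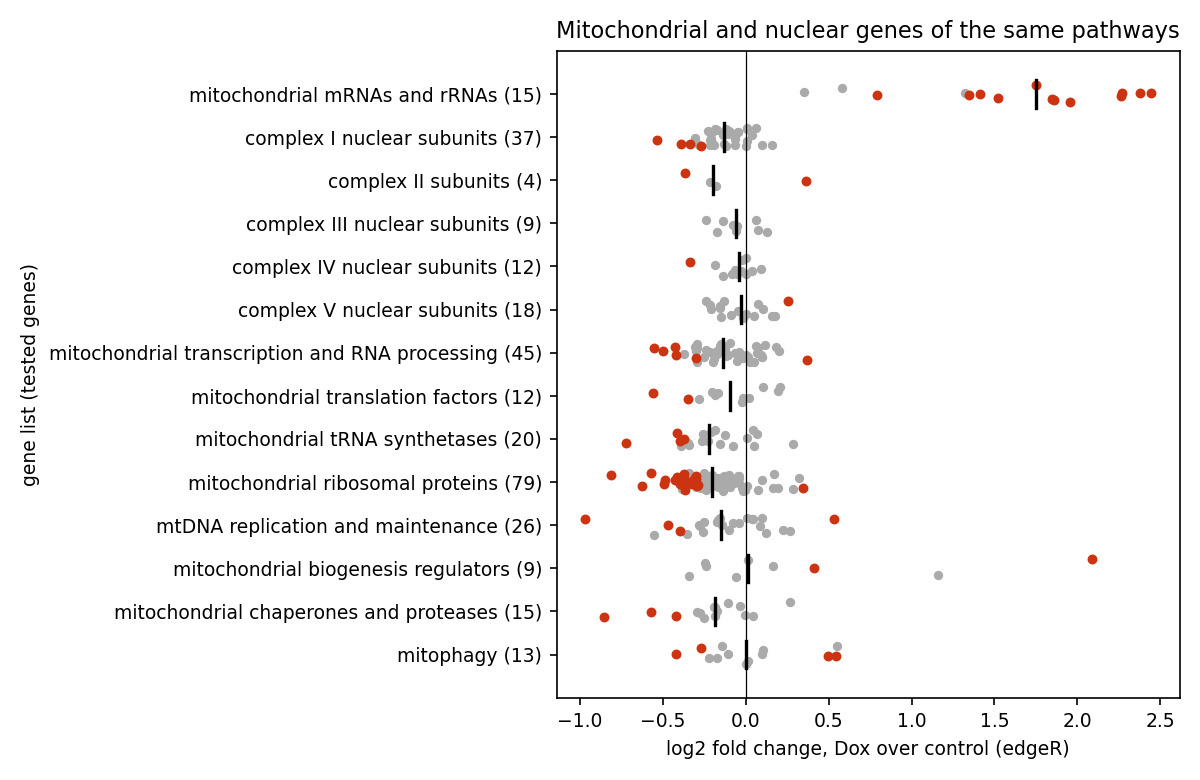
Each point is the edgeR log2 fold change of 1 gene, red where the adjusted p is under 0.05, for the 15 tested mitochondrial genes and for 13 nuclear lists, with the list median as a black bar. The mitochondrial genes lie between 0.35 and 2.45 with a median of 1.75, while the median of all listed nuclear genes together is -0.14.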

How the data were processed

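RNA of 4 BJ libraries was analysed per library. The submitters' processing notes list cutadapt, STAR, Picard and RSEM, with hg38 as the build; the sources used here give no versions, annotation release, library kit or strand setting. Units (expected count, TPM, FPKM) are taken as deposited, per the file headers. FPKM was deposited by the authors and left unused, and the deposited lengths and effective lengths gave gene sizes. Of the gene identifiers, 99.5% matched GENCODE 29 (GRCh38), whose coordinates (1-based) and transcript sequences are given.

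Expected counts were rounded, filtered with edgeR's filterByExpr (minimum count 10, minimum total 15), scaled by TMM and tested with glmQLFit and glmQLFTest, group being the only term. An SE is the log2 fold change divided by the square root of F. The 13 nuclear lists and the members were chosen with earlier results of these data known. Named nuclear genes are the 3 with the smallest adjusted p in the commoner direction of each list with at least 5 tested genes (both directions in a tie; for complex III these are summarised by their range), and others are marked as chosen after their values were seen. Some genes that this rule names are not reported here. Sums over members got no test. Alternatives were other scalings, filters and tools, limma on log2 TPM (pseudocount 1 or 0.1), GC-trend offsets, a replicate block and leaving out each library. The fit was tested on simulated data. Software was edgeR 4.0.16, DESeq2 1.42.0 and limma 3.58.1 in R 4.3.3, and SciPy 1.17.1 and Biopython 1.88 in Python 3.11.15.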

Additional observations from a re-analysis of the deposited data

How the results depend on the processing

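The 12 rises among the mitochondrial genes were 12 to 15 under the 16 alternatives, none of which gave a fall. MT-ND1, MT-ND2, MT-ND4, MT-ND4L, MT-ND5, MT-CO1, MT-CO2, MT-CYB, MT-ATP6, MT-RNR1 and MT-RNR2 passed under every one. The shares of mRNAs and rRNAs and the ratio of MT-ND6 to the heavy-strand mRNAs (log2 difference -0.92, -1.06 to -0.79 with 1 library left out) kept their direction. For heavy-strand complex I over complex IV mRNAs the log2 difference was 0.51 per length, 0.79 on raw counts, and 0.29 to 0.74 with 1 library left out. Nuclear calls were less stable, as were calls over all tested genes. Against 9 rises and 45 falls, the falls were 15 with library totals, 23 with DESeq2, 0 with limma on log2(TPM + 1) and 0 on log2(TPM + 0.1), with 1 rise each, 147 with GC-trend offsets, and 157 with the replicate block and these offsets. With 1 library left out, the rises ran from 0 to 36 and the falls from 5 to 158. The replicate block alone gave 14 mitochondrial rises, and 8 rises and 48 falls among nuclear genes. Deviations of same-numbered libraries correlated at 0.0382. This value cannot show whether same-numbered libraries shared a culture or day, because the Dox pair also differed along GC content. Over all tested genes the median log2 fold change was 0.13 with log2(TPM + 0.1) and 0.12 without the low-count filter. MT-ND6 had 88 to 137 counts and no tRNA more than 7.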

Other observations

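Copies of mitochondrial genes lie in the nuclear genome, and reads that match both are split between them by the counting. The tables list 407 such copies, of which 73 had any count, and their counts came to 0.201% and 0.166% of those of the mitochondrial genes in the controls and 0.207% and 0.236% in Dox. The 3 tested copies with the most reads lie side by side on chromosome 1 (GRCh38). MTATP6P1 (633696 to 634376) is identical to MT-ATP6 at 98.5% of aligned bases, and it had 73.8 and 71.5 expected counts in the controls and 443 and 234 in Dox (edgeR log2 fold change 2.24, SE 0.35, adjusted p = 0.00551). It held 6.62% and 6.67% of the reads of the pair in the controls and 8.91% and 9.34% in Dox. MTCO1P12 (631074 to 632616), 98.6% identical to MT-CO1, had 104 and 93.3 expected counts in the controls and 291 and 223 in Dox, at most 0.216% of the pair. MTND2P28 (629640 to 630683), 98.2% identical to MT-ND2, had 11.9 and 11.9 expected counts in the controls and 47.0 and 21.2 in Dox. The other 2 tested copies, MTND1P32 and MTND4P32 on the X chromosome, had at most 15 counts in any library. Single values of MT-ATP6 and MTATP6P1 are uncertain to the extent of this split.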
